A study of Homo sapiens with 12 samples.

Results

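The MK response is the change in a gene's RNA between K562 cells kept for 3 days in megakaryocyte differentiation medium (MK medium) and K562 cells kept in growth medium. The comparison described here sets the MK response of replicate 3, read from 4 of the 12 libraries, against the MK response of replicates 1 and 2, read from the other 8. K562 is an established human chronic myeloid leukaemia line that expresses erythroid genes and can take on megakaryocyte features in culture. The series asked what RHOB, a small GTPase, does in megakaryocyte and erythroid differentiation. The cells therefore received an siRNA against RHOB (siRHOB) or a negative control siRNA (siNC) in either medium, which gives 4 groups of 3 libraries. In each medium, replicate 3 is thus represented by 1 siRHOB and 1 siNC library, and replicates 1 and 2 together by 2 of each. All groups are unmodified K562 cells apart from the siRNA. The sources used here give neither the composition of the MK medium nor what a replicate number stands for. Replicate 3 is a single replicate number, so the p-values below measure the spread between these libraries and not between independent runs of the experiment.

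For every gene, the difference is the MK response of replicate 3 minus that of replicates 1 and 2, on the log2 scale. A positive difference means that the response was higher in replicate 3, and a negative one that it was lower. It was tested with edgeR's quasi-likelihood F test, with the siRNA as a covariate, over 14429 of the 19225 genes in the table. A gene was called at a Benjamini-Hochberg adjusted p under 0.05. Differences are given ± SE, taken as the size of the fitted log2 difference over the square root of its F statistic. The fitted value depends on a prior count, so this SE is approximate where reads are few. Levels are CPM, read counts scaled to the TMM-adjusted library size, with values of a group listed from lowest to highest. A lower level of an RNA in a bulk library cannot be told apart from fewer cells that make it.

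K562 cells driven towards megakaryocytes with phorbol esters are known to lose erythroid RNAs, gain platelet integrins and spread on the dish. Signalling through protein kinase C and the MAP kinases switches on immediate early genes such as EGR1 and FOS, whose RNAs are short-lived. Their products and the MAP kinase phosphatases then feed back on the pathway. The erythroid programme of these cells rests on GATA1, TAL1 and KLF1, and their embryonic and foetal globins are well-known products of it.

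Libraries held 34412558 to 54048161 counted reads. Log CPM values correlated at 0.991 to 0.993 between replicates 1 and 2 of a group and at 0.956 to 0.983 between replicate 3 and either of them. The 9 K562 markers were present throughout, summing to 4671 to 4885 CPM in the MK libraries of replicate 3, 5572 to 6279 CPM in those of replicates 1 and 2, 4338 to 4865 CPM in the growth medium libraries of replicate 3 and 4090 to 4691 CPM in those of replicates 1 and 2. The 7 megakaryocyte markers fixed for the check, which do not include ITGB3, summed to 285 to 332 CPM in MK medium in replicate 3, against 467 to 527 CPM in replicates 1 and 2, and to 71.7 to 88.8 CPM in growth medium in replicate 3, against 46.0 to 50.9 CPM in replicates 1 and 2. PF4, the platelet chemokine that defines mature megakaryocytes, had at most 4 reads in any library and was not tested.

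RHOB itself, the target of the siRNA, had 22.00 and 32.4 CPM in the MK libraries of replicate 3, against 10.1, 12.5, 12.8 and 15.5 CPM in those of replicates 1 and 2. In growth medium it had 0.4700 and 1.44 CPM in replicate 3, against 3.16, 3.31, 4.68 and 6.23 CPM in replicates 1 and 2. The 4 groups did not overlap, and RHOB was highest in the MK libraries and lowest in the growth medium libraries of replicate 3. The lower value of each replicate 3 pair came from the library labelled siRHOB. In MK medium, replicate 1 had 12.5 CPM in the library labelled siRHOB, against 12.8 CPM in the one labelled siNC, and replicate 2 had 15.5 CPM, against 10.1 CPM. The RHOB level of replicate 2 in MK medium thus went against its labels. The siRNA labels are used below as a covariate, as given. The MK response of RHOB was higher in replicate 3 by 3.22 ± 0.47 (edgeR adjusted p = 0.000487), and this call was lost without replicate 1. Among its relatives, RHOC was called with a higher response by 0.33 ± 0.09, a call lost without replicate 1 or without the siRHOB growth medium library of replicate 3. RHOA had a difference of 0.00 ± 0.07 and was not called.

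The MK response differed for 3798 genes, of which 1723 (11.9% of those tested) had a higher response in replicate 3 and 2075 (14.4%) a lower one. The balance of the directions depended on the scaling, with 1921 higher and 1858 lower under RLE scaling and 2058 higher and 1970 lower under DESeq2. The difference was over 2-fold for 400 of the genes with a higher and 382 of those with a lower response. The median difference over all genes tested was -0.03. Of the genes called, 1933 had a stronger response in replicate 3 than in replicates 1 and 2, in either direction. A further 936 had a weaker response of the same sign, and 929 had responses of opposite sign. Both of the opposite responses were themselves called in 245 of these 929. The response of replicates 1 and 2 enters both the class and the difference, and its error favours the weaker and opposite classes. With the direction taken from the mean of both responses, 2430 were stronger and 1368 weaker or opposite. All classes rest on fitted signs, whether or not the responses were themselves called. Both pair responses of replicate 3 lay above those of the other 4 pairs for 3302 genes (22.9% of those tested) and below them for 3576 (24.8%). Of the genes called, 1695 of the 1723 and 2050 of the 2075 were among them. The pair responses come from the same libraries as the test, so this is no separate support. In replicate 3 alone the MK response was called for 10426 genes (72.3%), and in replicates 1 and 2 for 11092 (76.9%). Without the siNC MK library of replicate 3, 1125 genes were called with a higher and 960 with a lower response. The lower count was 1340 without replicate 1 and 1271 without replicate 2, and the stronger class held 1256 genes without replicate 2 and 1029 without the siNC MK library of replicate 3.

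The spread of the differences over genes was wider than that between replicates 1 and 2. The MK response of replicate 3 minus the mean of the other replicates had an SD over genes of 0.83 in siRHOB and 0.94 in siNC libraries. The response of replicate 1 minus that of replicate 2 had an SD of 0.64 in siRHOB and 0.60 in siNC libraries.

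**Figure D1:**
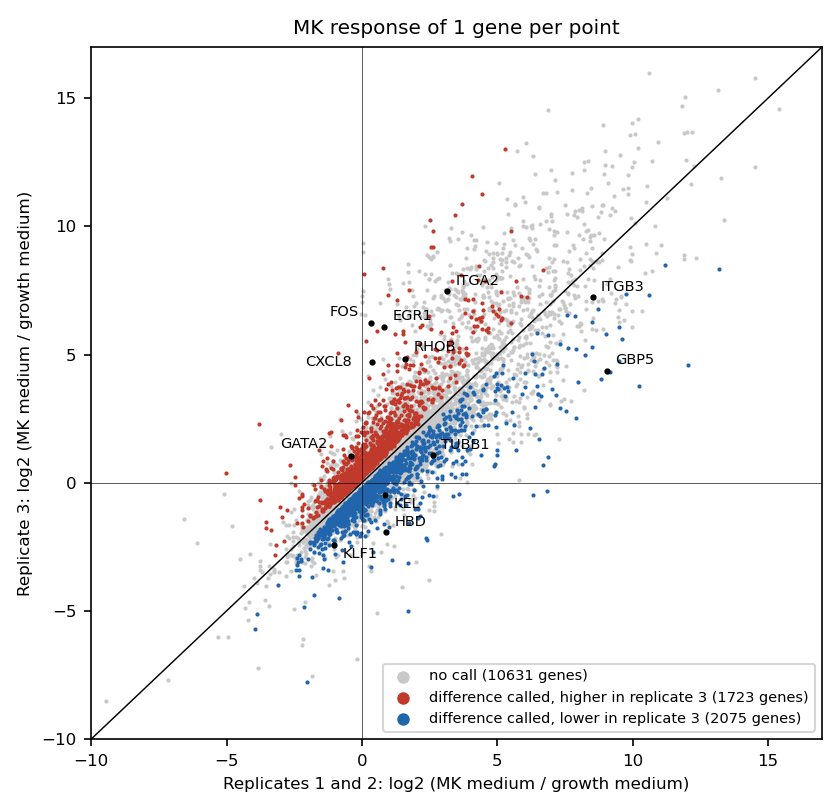
MK response of each of the 14429 genes tested, in replicate 3 (y axis) and in replicates 1 and 2 (x axis), as fitted log2 ratios of MK to growth medium, with 12 genes named. Points above the diagonal have a higher log2 ratio in replicate 3, which can be a larger rise, a smaller fall or a change of direction. The 1723 genes called higher include EGR1, FOS and ITGA2, while the 2075 called lower include GBP5, TUBB1 and KEL.

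The difference can arise in the MK libraries, in the growth medium libraries or in both, since it equals the gap between replicate 3 and the others in MK medium minus the same gap in growth medium. All 3 contrasts share libraries, so the counts that follow describe the called genes and are no separate support. Over all genes tested, replicate 3 was higher than replicates 1 and 2 in MK medium for 3305 (22.9%) and lower for 3090 (21.4%), and in growth medium higher for 2587 (17.9%) and lower for 2368 (16.4%). Among the 1723 genes with a higher MK response, 737 (42.8%) were called higher in MK medium alone and 448 (26.0%) lower in growth medium alone, and 282 (16.4%) were both. Among the 2075 with a lower MK response, 905 (43.6%) were lower in MK medium alone and 569 (27.4%) higher in growth medium alone, and 259 (12.5%) were both. Hypoxia response genes stood at a median of -0.13 in MK medium and -0.66 in growth medium relative to replicates 1 and 2, and red cell membrane and regulator genes at -0.66 in MK medium and -0.06 in growth medium.

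**Figure D2:**
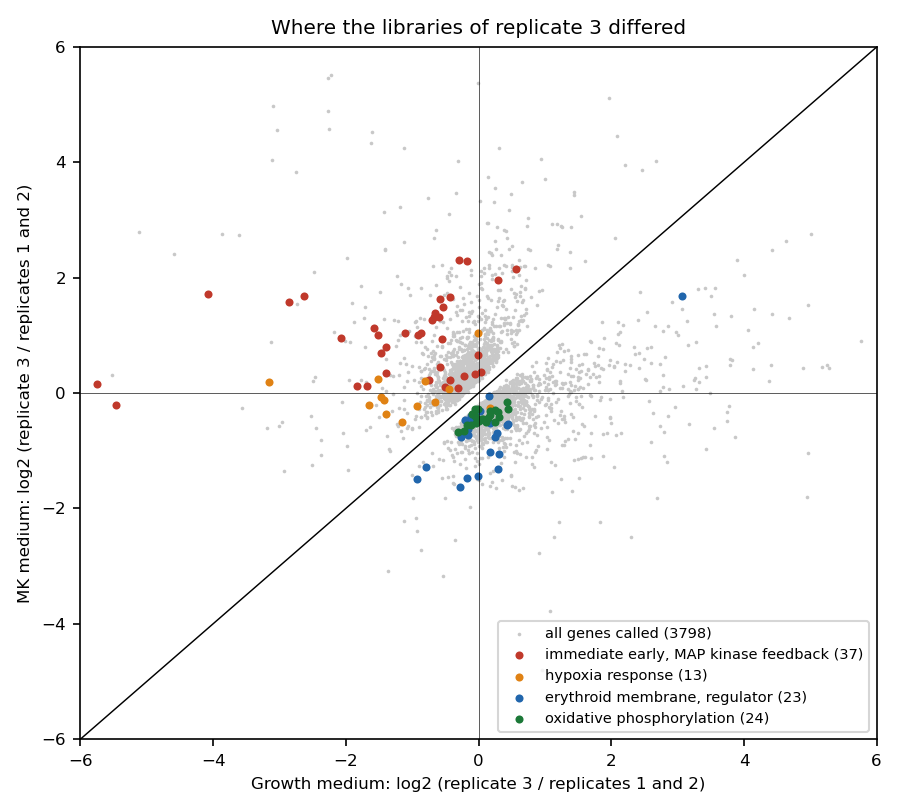
Level of replicate 3 relative to replicates 1 and 2 in growth medium (x axis) and in MK medium (y axis), as fitted log2 ratios, for the 3798 genes with a called difference, 9 of which lie beyond the axis limit of 6. Called immediate early genes lie mostly to the left of and above the centre, although EGR1 lies slightly below it, called hypoxia response genes mostly to the left, and erythroid and oxidative phosphorylation genes mostly below.

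The list counts below can be read beside the shares over all genes tested. For the MK response, these were 11.9% higher and 14.4% lower. For the level of replicate 3, they were 22.9% higher and 21.4% lower in MK medium and 17.9% and 16.4% in growth medium. Immediate early and MAP kinase feedback genes had the highest median difference of the 27 lists described. Of 43 tested, 37 had a higher MK response in replicate 3 and 0 a lower one, and the other 6 were not called. Their median response was 3.29 in replicate 3, against 1.28 in replicates 1 and 2. By pair, the median was 3.31 in siRHOB and 3.23 in siNC libraries of replicate 3, against 1.13 and 1.84 in siRHOB and 0.96 and 1.11 in siNC libraries of replicates 1 and 2. Replicate 3 was called higher in MK medium for 33 of the 43 and lower in growth medium for 25.

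EGR1, an immediate early zinc finger factor, had 1081 and 1121 CPM in the MK libraries of replicate 3, against 1248, 1276, 1278 and 1288 CPM in those of replicates 1 and 2. Its growth medium level was 15.4 and 16.9 CPM in replicate 3, against 608, 616, 777 and 862 CPM in replicates 1 and 2. The MK levels of replicate 3 lay slightly below the other 4 values, and the growth medium libraries of replicate 3 stood far below the other 4. The response was 6.09 in replicate 3, against 0.83 in replicates 1 and 2, a difference of 5.26 ± 0.20 (edgeR adjusted p = 4.45e-08). FOS, a subunit of the AP-1 factor, had 98.4 and 104 CPM in MK medium in replicate 3, against 85.8, 89.6, 92.6 and 95.5 CPM in replicates 1 and 2. FOS had 1.16 and 1.51 CPM in growth medium in replicate 3, against 47.4, 65.3, 65.6 and 114 CPM in replicates 1 and 2. Its difference was 5.90 ± 0.51 (edgeR adjusted p = 0.000138), again with like levels in MK medium and a low level in the growth medium libraries of replicate 3. IER2, another immediate early gene, had 321 and 342 CPM in MK medium in replicate 3, against 295, 300.4, 303 and 317 CPM in replicates 1 and 2. IER2 had 72.1 and 78.9 CPM in growth medium in replicate 3, against 215, 229, 249.6 and 278 CPM in replicates 1 and 2, with a difference of 1.81 ± 0.11.

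Other members also stood higher in the MK libraries of replicate 3. FOSB, a relative of FOS, had 240.4 and 273 CPM there, against 64.8, 65.7, 76.5 and 99.5 CPM in replicates 1 and 2. FOSB had 1.34 and 1.44 CPM in growth medium in replicate 3, against 10.8, 17.7, 19.2 and 49.1 CPM in replicates 1 and 2. The groups overlapped in neither medium, and the difference was 5.80 ± 0.96 (edgeR adjusted p = 0.00399). EGR3, a relative of EGR1, had 161 and 164 CPM in MK medium in replicate 3, against 45.9, 46.1, 50.3 and 59.97 CPM in replicates 1 and 2. EGR3 had 0.0495 and 0.297 CPM in growth medium in replicate 3, against 0.543, 1.08, 1.11 and 1.77 CPM in replicates 1 and 2. EGR2 differed by 4.45 ± 0.59 and EGR3 by 4.32 ± 0.64. Both sizes rest on few reads in the growth medium libraries of replicate 3, 4 in each for EGR2 and 2 and 13 for EGR3. Over the alternatives the difference of EGR2 ranged from 3.73 to 5.04 and that of EGR3 from 3.60 to 6.11. NR4A1, an orphan nuclear receptor, had 235 and 278 CPM in MK medium in replicate 3, against 93.2, 99.03, 103 and 118 CPM in replicates 1 and 2. NR4A1 had 2.92 and 3.51 CPM in growth medium in replicate 3, against 4.47, 4.62, 5.15 and 5.21 CPM in replicates 1 and 2. It rose with MK medium in every pair, and by 1.91 ± 0.17 more in replicate 3. SPRY2, a feedback inhibitor of receptor kinase signalling, had 70.9 and 82.2 CPM in MK medium in replicate 3, against 27.6, 29.4, 30.04 and 36.3 CPM in replicates 1 and 2. SPRY2 had 7.63 and 10.3 CPM in growth medium in replicate 3, against 13.1, 13.9, 14.1 and 15.7 CPM in replicates 1 and 2, with a difference of 1.99 ± 0.17.

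**Figure D3:**
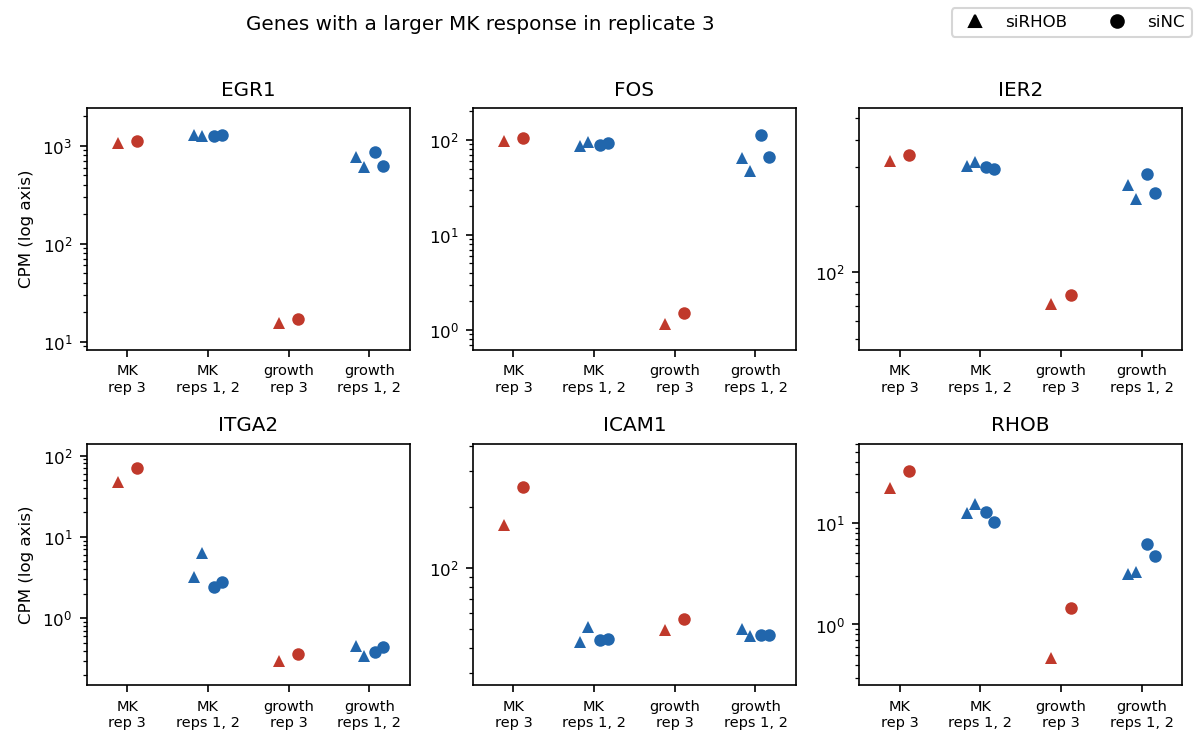
CPM of 6 genes with a higher MK response in replicate 3, on a log axis, in every library, with replicate 3 in red and replicates 1 and 2 in blue, and siRHOB as triangles and siNC as circles. EGR1, FOS and IER2 are low in the growth medium libraries of replicate 3, ITGA2 and ICAM1 are high in its MK libraries, and RHOB is both.

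The promoter of EGR1 is shown because its serum response sites are well known and its difference is among the largest, although, unlike most of the list, it was not called higher in the MK libraries of replicate 3. The CArG box, the site of serum response factor, was searched on both strands as CC, then 6 bases of A or T, then GG. In RefSeq promoters (GRCh38.p14, from 250 bases before to 50 after the start) it was found in 1.29% of all 35116 and in 2 of the 32 list members with a promoter in the table, EGR1 and EGR2. In this and the later motif searches, the share is per promoter, while a list member counts if any of its promoters matched. The share and the list count are therefore not in like units. Capitals mark the matches, and the window lies at chr5:138465229-138465528 on the plus strand.
EGR1: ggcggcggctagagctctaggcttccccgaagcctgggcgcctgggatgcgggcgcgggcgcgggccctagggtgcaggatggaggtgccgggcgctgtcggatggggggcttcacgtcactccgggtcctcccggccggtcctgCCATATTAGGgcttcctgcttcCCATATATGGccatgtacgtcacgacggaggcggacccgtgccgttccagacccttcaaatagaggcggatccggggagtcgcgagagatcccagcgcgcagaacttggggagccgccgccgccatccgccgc

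Cytokine, chemokine and NF-kB genes had a median difference of 0.86. Of 40 tested, 14 had a higher MK response in replicate 3 and 2 a lower one. The 2 became 1 without replicate 1, the siNC library of replicate 2 in either medium, either siNC library of replicate 3 or the siRHOB MK library of replicate 1, and 0 without replicate 2 or either siRHOB library of replicate 3. Replicate 3 was called higher in MK medium for 29 of the 40, and lower in growth medium for 6. ICAM1, an adhesion receptor for leukocyte integrins, had 162 and 250.2 CPM in the MK libraries of replicate 3, against 43.1, 44.00, 44.2 and 50.9 CPM in those of replicates 1 and 2. In growth medium it had 49.1 and 55.8 CPM in replicate 3, against 45.9, 46.5, 46.6 and 49.7 CPM in replicates 1 and 2. The MK libraries of replicate 3 stood alone, and the other 3 groups lay within a narrow band. Its difference was 2.01 ± 0.19 (edgeR adjusted p = 1.34e-05). CXCL8, the neutrophil chemokine interleukin 8, had 37.1 and 81.4 CPM in MK medium in replicate 3, against 9.45, 9.97, 11.6 and 11.8 CPM in replicates 1 and 2. CXCL8 had 2.15 and 2.17 CPM in growth medium in replicate 3, against 4.13, 4.52, 12.3 and 15.97 CPM in replicates 1 and 2, where the siNC values were the higher ones. It differed by 4.31 ± 0.65 (edgeR adjusted p = 0.00235), and the call was lost without replicate 1. CSF1, the macrophage growth factor, differed by 0.69 ± 0.12, and NFKB2, a subunit of NF-kB, by 0.65 ± 0.11. CCL2, a monocyte chemokine, had 318 and 475 CPM in MK medium in replicate 3, against 54.8, 59.8, 64.6 and 85.7 CPM in replicates 1 and 2, but at most 0.320 CPM in any growth medium library. Its difference of 1.72 ± 1.34 was not called (edgeR adjusted p = 0.407).

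Integrin and extracellular matrix genes had a median difference of 0.50, with 14 of 48 tested higher and 6 lower. The 14 became 9 without replicate 1, and the median became 0.30 without the siNC growth medium library of replicate 2. ITGA2, the alpha 2 chain of the collagen receptor of platelets, had 47.8 and 70.9 CPM in the MK libraries of replicate 3, against 2.44, 2.78, 3.17 and 6.34 CPM in those of replicates 1 and 2. Its growth medium level was 0.297 and 0.366 CPM in replicate 3, against 0.346, 0.385, 0.447 and 0.4598 CPM in replicates 1 and 2. The rise with MK medium was seen in all 6 pairs and was by far the larger in both pairs of replicate 3, with a difference of 4.33 ± 0.78 (edgeR adjusted p = 0.00287) that was not called without replicate 1. PLAUR, the urokinase receptor, had 77.3 and 102 CPM in MK medium in replicate 3, against 18.3, 19.9, 20.8 and 24.7 CPM in replicates 1 and 2. PLAUR had 6.53 and 8.64 CPM in growth medium in replicate 3, against 6.66, 6.74, 7.19 and 8.03 CPM in replicates 1 and 2, a difference of 2.00 ± 0.19. The fibronectin receptor chains ITGA5 and ITGB1 differed by 1.03 ± 0.10 and 0.66 ± 0.07. COL6A3, a chain of collagen VI, had 581 and 646 CPM in MK medium in replicate 3, against 167, 192, 194 and 257 CPM in replicates 1 and 2, and its difference of 1.61 ± 0.38 was lost on leaving out replicate 1 or any of 3 single growth medium libraries.

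Of 39 actin and myosin cytoskeleton genes, 18 had a higher MK response in replicate 3 and 3 a lower one, with a median difference of 0.26. The 3 became 0 without replicate 1 and 1 without any single library of replicate 3. FLNA, the actin crosslinker filamin A, had 3194 and 3220.2 CPM in MK medium in replicate 3, against 2234, 2266, 2299 and 2550.0 CPM in replicates 1 and 2. FLNA had 1005 and 1165 CPM in growth medium in replicate 3, against 1277, 1295, 1366 and 1375 CPM in replicates 1 and 2. Replicate 3 was thus higher in one medium and lower in the other, without overlap, and the difference was 0.75 ± 0.09. VASP, which promotes actin filament elongation, differed by 0.74 ± 0.08, and ACTN1, an actin crosslinker of stress fibres, by 0.77 ± 0.11. MYH10, a non-muscle myosin heavy chain, had a difference of -0.24 ± 0.08 (edgeR adjusted p = 0.0222), a call lost without replicate 1, without replicate 2 or without any of 9 single libraries. MYH9, another such chain, had 0.21 ± 0.08 (edgeR adjusted p = 0.0773) and was called with DESeq2, with RLE scaling and without any of 4 single libraries.

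Genes of the integrated stress and unfolded protein response, which cells induce when amino acids run short or proteins misfold in the endoplasmic reticulum, had a median MK response of 0.14 in replicate 3, against -0.56 in replicates 1 and 2. Of 36 tested, 20 had a higher response in replicate 3 and 2 a lower one, and in 10 of these the responses had opposite signs. The 2 became 1 without replicate 1, either siNC library of replicate 3 or any siRHOB MK library. HSPA5, the endoplasmic reticulum chaperone BiP, had 961 and 1015 CPM in the MK libraries of replicate 3, against 823, 838, 842 and 850.5 CPM in those of replicates 1 and 2. In growth medium it had 659 and 702 CPM in replicate 3, against 1115, 1135, 1308 and 1337 CPM in replicates 1 and 2. HSPA5 therefore rose with MK medium in replicate 3 and fell in replicates 1 and 2, a difference of 1.08 ± 0.09 (edgeR adjusted p = 4.49e-08). HERPUD1, which serves in degradation of misfolded proteins, had 43.8 and 50.1 CPM in MK medium in replicate 3, against 31.97, 32.00, 32.1 and 33.9 CPM in replicates 1 and 2. HERPUD1 had 18.1 and 19.02 CPM in growth medium in replicate 3, against 38.03, 38.98, 44.4 and 47.6 CPM in replicates 1 and 2, and differed by 1.71 ± 0.12. The chaperone HSP90B1 differed by 0.86 ± 0.09.

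The promoter of HSPA5 is shown as the textbook case of the endoplasmic reticulum stress element. That element was searched on both strands as CCAAT, then any 9 bases, then CCACG. It was found in 0.08% of RefSeq promoters of this length and in 4 of the 32 list members with one, HSPA5, HSP90B1, XBP1 and CRELD2, the last pair named here after their values were seen. The MK response was higher in replicate 3 for the first 3 of these, and CRELD2 was not called. The window lies at chr9:125241294-125241593 on the minus strand, with the match in capitals.
HSPA5: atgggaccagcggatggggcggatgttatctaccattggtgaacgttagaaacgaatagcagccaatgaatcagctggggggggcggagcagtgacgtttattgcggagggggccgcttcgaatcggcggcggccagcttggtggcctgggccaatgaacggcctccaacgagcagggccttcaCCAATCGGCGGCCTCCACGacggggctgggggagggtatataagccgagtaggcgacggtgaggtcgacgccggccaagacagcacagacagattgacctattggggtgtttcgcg

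Hypoxia response genes, most of them targets of the factor HIF1, differed chiefly in growth medium. Of 19 tested, 12 had a higher MK response in replicate 3 and 1 a lower one. In MK medium replicate 3 was called lower for 5 of the 19 and higher for 4, and in growth medium lower for 12 and higher for 1. BNIP3, a mitophagy receptor, had 52.4 and 68.6 CPM in MK medium in replicate 3, against 58.4, 61.7, 63.03 and 69.2 CPM in replicates 1 and 2. BNIP3 had 65.1 and 66.1 CPM in growth medium in replicate 3, against 178, 178, 184 and 185 CPM in replicates 1 and 2. Levels overlapped in MK medium, and in growth medium both libraries of replicate 3 lay below every other, which gave a difference of 1.40 ± 0.12. PDK1, which restrains entry of pyruvate into the citric acid cycle, had 76.1 and 78.96 CPM in MK medium in replicate 3, against 93.01, 97.6, 102 and 105 CPM in replicates 1 and 2. PDK1 had 32.9 and 38.1 CPM in growth medium in replicate 3, against 90.5, 92.4, 93.99 and 96.6 CPM in replicates 1 and 2, and differed by 1.04 ± 0.10. BHLHE40, a transcriptional repressor, differed by 1.02 ± 0.07. Glycolysis and pentose phosphate genes followed, with 15 of 28 higher, 3 lower and a median difference of 0.31. PFKFB4, a regulator of glycolytic flux, differed by 1.34 ± 0.10 and the glucose transporter SLC2A3 by 1.12 ± 0.10.

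Cholesterol synthesis genes, which the factor SREBP2 induces when sterols are low, mostly stood low in replicate 3 in both media. Of 28 tested, 19 were called lower in MK medium and 24 in growth medium, with a median gap of -0.38 in MK medium and -0.66 in growth medium. The MK response was higher in replicate 3 for 11 and lower for 2, and the 2 became 1 without replicate 2 or the siRHOB growth medium library of replicate 3 and 0 without its siNC MK library. INSIG1, the sterol-responsive retention factor of SREBP, had 111 and 112 CPM in MK medium in replicate 3, against 159, 161, 176 and 183 CPM in replicates 1 and 2. INSIG1 had 73.9 and 81.5 CPM in growth medium in replicate 3, against 362, 395, 431 and 508 CPM in replicates 1 and 2, and differed by 1.84 ± 0.16 (edgeR adjusted p = 5.09e-06). Replicate 3 was lower in both media without overlap, and further below in growth medium. SQLE, squalene epoxidase, was the 1 member called higher in MK medium, with 979 and 1027 CPM in replicate 3, against 686, 719.9, 727 and 746 CPM in replicates 1 and 2. SQLE had 193 and 203 CPM in growth medium in replicate 3, against 285, 288, 314 and 320.0 CPM in replicates 1 and 2, and differed by 1.09 ± 0.08.

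Of 32 apoptosis regulators, 7 had a higher and 4 a lower response, and the sign of their median depended on the scaling. The shares of all genes tested were 11.9% higher and 14.4% lower. MCL1, a survival protein of the BCL2 family, had 1536 and 1768 CPM in MK medium in replicate 3, against 1104, 1117, 1168 and 1235 CPM in replicates 1 and 2. MCL1 had 477 and 486 CPM in growth medium in replicate 3, against 612, 639, 658 and 776 CPM in replicates 1 and 2, a difference of 0.99 ± 0.11. The pro-apoptotic BH3-only gene PMAIP1 differed by 1.35 ± 0.14 and the death receptor gene TNFRSF10B by 1.47 ± 0.15. Without replicate 2, 4 were higher and 1 was lower, and the 4 lower became 1 without the siNC MK library of replicate 3 and 2 without the siNC growth medium library of replicate 2 or 3 or the siRHOB MK library of replicate 1. Of 28 lysosome genes, 12 were higher and 4 lower, and the 4 became 1 or 2 without replicate 1, replicate 2, the siNC library of replicate 3 in either medium or the siRHOB MK library of replicate 2 or 3. CTSB, a cysteine protease, had 599 and 728 CPM in MK medium in replicate 3, against 255, 261, 262 and 301 CPM in replicates 1 and 2. CTSB had 169 and 183 CPM in growth medium in replicate 3, against 129, 131, 134 and 137 CPM in replicates 1 and 2. It differed by 0.89 ± 0.11, the protease CTSS by 1.61 ± 0.19 and the cholesterol exporter NPC1 by 1.22 ± 0.09.

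Transcription factors of blood cells differed in both directions, with 6 of 30 tested higher and 11 lower. The 11 became 3 without the siNC MK library of replicate 3, 5 without its siNC growth medium library and 7 without replicate 1. GATA2, the GATA factor of stem and early megakaryocyte cells, had 262 and 273 CPM in MK medium in replicate 3, against 196, 207, 207 and 224 CPM in replicates 1 and 2. Its growth medium level was 121 and 141 CPM in replicate 3, against 251, 259, 273 and 317 CPM in replicates 1 and 2. GATA2 rose with MK medium in replicate 3 and fell in replicates 1 and 2, a difference of 1.43 ± 0.11 (edgeR adjusted p = 1.54e-07). KLF1, the erythroid factor, had 14.9 and 17.9 CPM in MK medium in replicate 3, against 39.9, 43.3, 46.2 and 49.02 CPM in replicates 1 and 2. KLF1 had 82.7 and 95.5 CPM in growth medium in replicate 3, against 82.3, 90.1, 90.1 and 96.6 CPM in replicates 1 and 2. Its growth medium levels overlapped and its MK levels did not, and its difference was -1.43 ± 0.13 (edgeR adjusted p = 3.47e-07). GATA1, the GATA factor of the erythroid and megakaryocyte lineages, had 232 and 244 CPM in MK medium in replicate 3, against 304, 321, 323 and 336 CPM in replicates 1 and 2, and a difference of -0.35 ± 0.09 that was lost without replicate 2 or without either siNC library of replicate 3.

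Red cell membrane and regulator genes had a lower MK response in replicate 3 in 23 of 32 cases, a higher one in 0, and a median difference of -0.56. Their median response was -0.80 in replicate 3, against -0.07 in replicates 1 and 2. Replicate 3 was called lower in MK medium for 27 of the 32. The 23 became 14 without the siNC MK library of replicate 3 and 15 without its siNC growth medium library. KEL, the Kell blood group protein, had 72.6 and 86.96 CPM in MK medium in replicate 3, against 160.4, 165, 165 and 169 CPM in replicates 1 and 2. KEL had 111 and 113 CPM in growth medium in replicate 3, against 79.4, 86.1, 92.9 and 105 CPM in replicates 1 and 2. It fell with MK medium in replicate 3 and rose in replicates 1 and 2, a difference of -1.36 ± 0.10 (edgeR adjusted p = 2.04e-08). ERMAP, an erythroid membrane protein of the Scianna blood group, had 35.7 and 42.5 CPM in MK medium in replicate 3, against 92.2, 92.4, 101 and 103 CPM in replicates 1 and 2. ERMAP had 148 and 149 CPM in growth medium in replicate 3, against 115, 119, 125 and 125 CPM in replicates 1 and 2, a difference of -1.61 ± 0.10 (edgeR adjusted p = 3.05e-09).

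Of 9 globin genes tested, 6 had a lower MK response in replicate 3 and 0 a higher one, but 2 were called lower without the siNC MK library of replicate 3. Their median response was -0.24 in replicate 3, against 0.87 in replicates 1 and 2. HBE1, embryonic epsilon globin, had 2978 and 3237 CPM in MK medium in replicate 3, against 3405, 3747, 3789 and 4096 CPM in replicates 1 and 2. HBE1 had 1571 and 2077 CPM in growth medium in replicate 3, against 889.5, 1058, 1146 and 1182 CPM in replicates 1 and 2. It rose in every pair and less in replicate 3, with a difference of -1.04 ± 0.14 (edgeR adjusted p = 0.000124). HBD, delta globin, had 4.08 and 6.36 CPM in MK medium in replicate 3, against 15.3, 15.7, 16.4 and 20.5 CPM in replicates 1 and 2. HBD had 19.3 and 20.3 CPM in growth medium in replicate 3, against 8.53, 8.55, 9.46 and 10.3 CPM in replicates 1 and 2. The order of the media was thus turned round in replicate 3, a difference of -2.81 ± 0.22 (edgeR adjusted p = 2.98e-08). HBG1, a foetal gamma globin gene, had 105 and 109 CPM in MK medium in replicate 3, against 201, 224, 244 and 271 CPM in replicates 1 and 2. HBG1 had 102 and 154 CPM in growth medium in replicate 3, against 100.4, 102, 136 and 149 CPM in replicates 1 and 2. Its difference of -1.18 ± 0.27 was lost without replicate 1 or without either siNC library of replicate 3. HBA2, an alpha globin gene, had a difference of -0.58 ± 0.13, lost without the siNC MK library of replicate 3, and HBA1 one of -0.93 ± 0.41 that was not called. HBG1 and HBA1 share most of their sequence with HBG2 and HBA2, so how reads were split within each pair is uncertain.

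Haem synthesis and iron genes had a lower MK response in replicate 3 in 16 of 23 cases and a higher one in 4, which became 2 without its siNC MK library. SLC25A37, the mitochondrial iron importer mitoferrin, had 311 and 344 CPM in MK medium in replicate 3, against 863, 872, 903 and 929.8 CPM in replicates 1 and 2. SLC25A37 had 229 and 255 CPM in growth medium in replicate 3, against 317, 318, 346 and 351 CPM in replicates 1 and 2, and differed by -0.99 ± 0.09 (edgeR adjusted p = 1.94e-07). Replicate 3 was lower in both media without overlap, and further below in MK medium. ALAS2, the erythroid enzyme that starts the pathway, differed by -0.88 ± 0.09 and UROS, a later enzyme, by -1.02 ± 0.10.

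**Figure D4:**
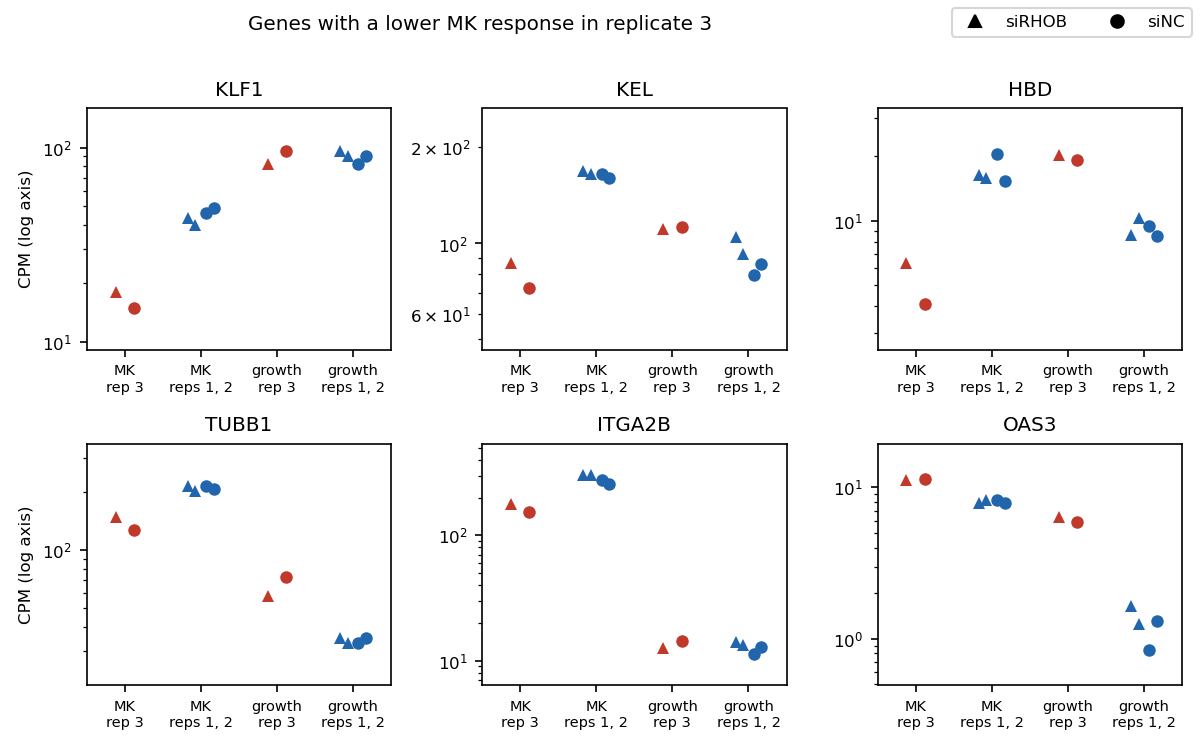
CPM of 6 genes with a lower MK response in replicate 3, on a log axis, in every library, with replicate 3 in red and replicates 1 and 2 in blue, and siRHOB as triangles and siNC as circles. KLF1 is lowest in the MK libraries of replicate 3, KEL and HBD change direction, and TUBB1 and OAS3 are higher in the growth medium libraries of replicate 3 than in those of replicates 1 and 2.

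Of 28 megakaryocyte and platelet genes tested, 25 were called as rising with MK medium in replicate 3 and 24 in replicates 1 and 2. Over all genes tested, the response was called in either direction for 72.3% in replicate 3 and 76.9% in replicates 1 and 2. Those shares include falling genes, so they are larger than the like shares of rising genes alone. The median MK response of the list was 2.58 in replicate 3, against 2.77 in replicates 1 and 2. In level, replicate 3 was called higher in MK medium for 14 of the 28 and lower for 3, with a median gap of 0.26. The sum of the 7 markers given above was lower there, and most of that sum came from ITGA2B and TUBB1. The response was lower in replicate 3 for 11 of the 28 and higher for 4, or 7 without its siNC growth medium library. ITGA2B, the alpha chain of the platelet fibrinogen receptor, had 153 and 177 CPM in MK medium in replicate 3, against 255, 279, 302 and 304 CPM in replicates 1 and 2. ITGA2B had 12.5 and 14.3 CPM in growth medium in replicate 3, against 11.3, 12.8, 13.3 and 14.1 CPM in replicates 1 and 2. Its growth medium levels overlapped, its MK levels did not, and the difference was -0.86 ± 0.11 (edgeR adjusted p = 1.46e-05). ITGB3, the partner beta chain, had 1121 and 1183 CPM in MK medium in replicate 3, against 604, 614, 641 and 715 CPM in replicates 1 and 2. ITGB3 had 6.11 and 8.98 CPM in growth medium in replicate 3, against 1.41, 1.53, 1.68 and 2.23 CPM in replicates 1 and 2. Replicate 3 was higher in both media, more so in growth medium, and the difference of -1.28 ± 0.22 was lost without replicate 1. TUBB1, the beta tubulin specific to platelets and their precursors, had 127 and 148 CPM in MK medium in replicate 3, against 202, 207, 215 and 216 CPM in replicates 1 and 2. TUBB1 had 58.2 and 72.9 CPM in growth medium in replicate 3, against 33.03, 33.1, 35.3 and 35.3 CPM in replicates 1 and 2, a difference of -1.55 ± 0.11 (edgeR adjusted p = 1.64e-08). RAB27B, a GTPase of platelet granules, had 59.4 and 81.4 CPM in MK medium in replicate 3, against 45.4, 49.8, 53.5 and 57.4 CPM in replicates 1 and 2. RAB27B had 33.01 and 36.3 CPM in growth medium in replicate 3, against 7.600, 7.79, 8.57 and 9.67 CPM in replicates 1 and 2, with a difference of -1.60 ± 0.17.

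F2R, the thrombin receptor, was among the 4 platelet genes with a higher response. It had 181 and 214 CPM in MK medium in replicate 3, against 86.7, 88.2, 88.6 and 90.2 CPM in replicates 1 and 2. F2R had 47.7 and 57.6 CPM in growth medium in replicate 3, against 40.8, 43.6, 44.2 and 46.2 CPM in replicates 1 and 2, a difference of 0.89 ± 0.11. PLEK, the platelet kinase C substrate pleckstrin, had 9.903 and 14.2 CPM in MK medium in replicate 3, against 18.3, 18.7, 20.1 and 23.97 CPM in replicates 1 and 2, with a difference of -1.23 ± 0.45 that was not called (edgeR adjusted p = 0.0507). It was called with DESeq2 and with the replicate number as a block, where the difference was -1.22. GP1BB, a chain of the von Willebrand factor receptor, had a difference of -0.80 ± 0.27 (edgeR adjusted p = 0.0678) and was called with DESeq2 and without the siRHOB growth medium library of replicate 1 or 3. FLI1, an ETS factor of megakaryocytes, had 171 and 222 reads in the MK libraries of replicate 3, against 2 to 11 reads in those of replicates 1 and 2, but 1 read in all growth medium libraries together. No response can be set against that, and FLI1 was not called.

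Of 33 interferon response genes tested, 14 were called higher in replicate 3 in MK medium and 17 in growth medium, with a median gap of 0.47 in MK medium and 0.67 in growth medium. The MK response was lower in replicate 3 for 7 and higher for 7, with a median difference of -0.15. The higher count became 3 or 4 without replicate 1, replicate 2 or either siNC library of replicate 3. The genes described next all had a lower response, because naming went by smallest adjusted p or largest difference. They do not stand for the list, which was evenly split. OAS3, an antiviral oligoadenylate synthetase, had 11.2 and 11.4 CPM in MK medium in replicate 3, against 7.83, 7.89, 8.19 and 8.23 CPM in replicates 1 and 2. In growth medium it had 5.89 and 6.36 CPM in replicate 3, against 0.846, 1.26, 1.302 and 1.65 CPM in replicates 1 and 2, so the gap was the wider there and the difference was -1.78 ± 0.24 (edgeR adjusted p = 1.88e-05). SAMD9, an antiviral factor, had 52.6 and 55.2 CPM in MK medium in replicate 3, against 25.6, 25.8, 29.6 and 30.9 CPM in replicates 1 and 2. SAMD9 had 15.3 and 15.96 CPM in growth medium in replicate 3, against 3.66, 4.23, 4.27 and 4.76 CPM in replicates 1 and 2, and differed by -0.94 ± 0.15. HERC6, an interferon-induced ubiquitin ligase family member, had 120 reads over the MK libraries of replicate 3, against 361 over those of replicates 1 and 2, and 57 reads in growth medium in replicate 3, against 12 in replicates 1 and 2, a difference of -3.71 ± 0.76. The interferon-induced GTPase gene GBP4 had 1325 and 1465 reads in the MK libraries of replicate 3, against 415 to 605 in those of replicates 1 and 2. Its growth medium level was 45 and 89 reads in replicate 3, against 0 reads in all 4 libraries of replicates 1 and 2. Its lower response was called (edgeR adjusted p = 6.65e-06), but with 0 reads the fitted size depends on the prior count and is not given. GBP5, its relative, had 1383 and 1492 reads in MK medium in replicate 3, against 265 to 369 reads in replicates 1 and 2, and 64 and 94 reads in growth medium in replicate 3, against 0 to 2 reads in replicates 1 and 2.

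The promoter of OAS3 is shown for the element through which interferon acts on such genes. The interferon-stimulated response element was searched on both strands as GAAA, then any 2 bases, then GAAA. It was found in 3.57% of RefSeq promoters of this length and in 21 of the 29 list members with one. Among these 21, some had a lower MK response in replicate 3, OAS3 and SAMD9 among them, and others a higher one. Most of the 21 were not called or not tested. OAS3 holds 2 matches, in capitals, in the window chr12:112938224-112938523 on the plus strand.
OAS3: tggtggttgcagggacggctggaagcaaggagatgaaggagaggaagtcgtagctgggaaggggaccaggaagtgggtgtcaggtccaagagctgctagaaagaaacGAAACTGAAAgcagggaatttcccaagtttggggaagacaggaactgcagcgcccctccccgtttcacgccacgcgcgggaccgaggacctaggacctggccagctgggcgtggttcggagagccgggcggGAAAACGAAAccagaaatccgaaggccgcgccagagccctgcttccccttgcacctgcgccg

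Of 16 genes of MHC class I and peptide loading, 3 had a higher response and 3 a lower one. Among all genes tested, the shares were 11.9% and 14.4%. The 3 lower became 0 without replicate 2 and 1 without the siNC growth medium or the siRHOB MK library of replicate 3. HLA-E, a non-classical class I gene, had 301 and 307 CPM in MK medium in replicate 3, against 101, 104, 109 and 116 CPM in replicates 1 and 2. HLA-E had 51.4 and 55.5 CPM in growth medium in replicate 3, against 40.2, 41.2, 41.4 and 42.1 CPM in replicates 1 and 2, a difference of 1.13 ± 0.08. TAPBP, tapasin of the peptide loading complex, differed by 0.67 ± 0.10 and CALR, the chaperone calreticulin, by 0.41 ± 0.08. NLRC5, the transactivator of class I genes, had 40 and 49 reads in the MK libraries of replicate 3, against 235 to 290 reads in those of replicates 1 and 2. In growth medium it had 6 reads in replicate 3, all in the siNC library, against 2 reads in replicates 1 and 2, so no fitted size is given. Its lower response (edgeR adjusted p = 0.00888) was lost without replicate 2 or without the siNC growth medium library of replicate 3.

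Many of the largest negative differences belonged to genes that were nearly silent in the growth medium libraries of replicates 1 and 2 and low but present in those of replicate 3. ADCY6, an adenylate cyclase, had 19.3 and 29.5 CPM in MK medium in replicate 3, against 35.1, 38.6, 39.98 and 40.7 CPM in replicates 1 and 2. ADCY6 had 2.597 and 3.68 CPM in growth medium in replicate 3, against 0.346, 0.436, 0.487 and 0.525 CPM in replicates 1 and 2. It rose in every pair and less in replicate 3, with a difference of -3.47 ± 0.27. LYVE1, a hyaluronan receptor, had 203 and 204 CPM in MK medium in replicate 3, against 131, 140.4, 147 and 166 CPM in replicates 1 and 2. LYVE1 had 0.989 and 1.55 CPM in growth medium in replicate 3, against 0, 0.0769, 0.117 and 0.162 CPM in replicates 1 and 2. KIRREL, an adhesion protein of the nephrin family, had 9.16 and 10.5 CPM in MK medium in replicate 3, against 6.903, 7.29, 7.29 and 7.36 CPM in replicates 1 and 2. KIRREL had 1.11 and 1.69 CPM in growth medium in replicate 3, against 0, 0.0389, 0.0494 and 0.0541 CPM in replicates 1 and 2. Both were higher in replicate 3 in either medium. LHX1, a LIM homeobox factor, had 17.2 and 19.1 CPM in MK medium in replicate 3, against 6.62, 7.06, 7.65 and 8.23 CPM in replicates 1 and 2. LHX1 had 0.965 and 1.92 CPM in growth medium in replicate 3, against 0.0194, 0.0256, 0.0811 and 0.0988 CPM in replicates 1 and 2. TRIM10, a tripartite motif protein, had 34.9 and 45.7 CPM in MK medium in replicate 3, against 50.3, 52.6, 53.97 and 55.5 CPM in replicates 1 and 2. TRIM10 had 1.23 and 1.31 CPM in growth medium in replicate 3, against 0.0811, 0.155, 0.205 and 0.247 CPM in replicates 1 and 2. The differences were -3.32 ± 0.45 for LYVE1, -4.73 ± 0.46 for KIRREL, -3.38 ± 0.49 for LHX1 and -3.26 ± 0.28 for TRIM10, resting on 6 to 29 reads in all over the 4 growth medium libraries of replicates 1 and 2. Over the alternatives the difference of LHX1 ranged from -4.75 to -2.26 and that of KIRREL from -5.72 to -3.79. The kinase gene CAMK2A had 26 and 52 reads in the growth medium libraries of replicate 3, against 0 to 6 reads in those of replicates 1 and 2, and a difference of -4.09 ± 0.53. The phospholipid flippase gene ATP8A2 had 32 and 43 reads in growth medium in replicate 3, against 0 to 6 reads in replicates 1 and 2, and a difference of -3.72 ± 0.56 that ranged from -7.84 in siNC libraries alone to -2.54 in siRHOB libraries alone. The protease inhibitor gene TIMP4 had 335 and 408 reads in MK medium in replicate 3, against 374 to 513 reads in replicates 1 and 2, and 8 and 9 reads in growth medium in replicate 3, against 2 reads in all in replicates 1 and 2. GRAMD2 differed chiefly in MK medium, with 93 and 110 reads in replicate 3, against 420 to 583 reads in replicates 1 and 2, and its call was lost without the siNC growth medium library of replicate 3.

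Several of the largest positive differences belonged to genes switched on in MK medium mainly in replicate 3. That of EGR1, described above, instead lay in growth medium. WFS1, which encodes the endoplasmic reticulum protein wolframin, had 5.83 and 12.05 CPM in the MK libraries of replicate 3, against 0.0998, 0.113, 0.281 and 0.305 CPM in those of replicates 1 and 2. Its growth medium level was 0.0989 and 0.274 CPM in replicate 3, against 0.0494, 0.0513, 0.2704 and 0.3497 CPM in replicates 1 and 2, and the difference was 5.38 ± 0.83 (edgeR adjusted p = 0.000109). CHI3L1, a secreted chitinase-like protein, had 850 and 1061 reads in the MK libraries of replicate 3, against 15 to 36 reads in those of replicates 1 and 2, and 0 reads in its growth medium libraries, against 0 to 2 reads in replicates 1 and 2. CYP4F2, a fatty acid hydroxylase, had 395 and 541 reads in MK medium in replicate 3, against 34 to 105 reads in replicates 1 and 2, and 0 reads in growth medium in replicate 3, against 0 to 14 reads in replicates 1 and 2. The genes listed as APP and SBSN had 147 to 322 reads in the MK libraries of replicate 3, against 4 to 14 reads in replicates 1 and 2, and 0 reads in its growth medium libraries, against 0 to 2 reads in replicates 1 and 2. No fitted size is given for these 4 genes because it depends on the prior count, and each call was lost on leaving out replicate 2 or the siNC growth medium library of replicate 3. The calls of APP, CHI3L1 and SBSN were also lost without other single libraries. EMP1, a membrane protein, had 217 and 246 reads in MK medium in replicate 3, against 22 to 32 reads in replicates 1 and 2, and its call was lost without replicate 2 or without the siNC growth medium library of replicate 2.

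Genes of oxidative phosphorylation encoded in the nucleus had a lower MK response in replicate 3 in 24 of 33 cases and a higher one in 0, with a median difference of -0.43. Their median response was -0.25 in replicate 3, against 0.19 in replicates 1 and 2. Without the siNC MK library of replicate 3, 12 were called lower. ATP5D, a subunit of the ATP synthase, had 37.04 and 37.9 CPM in MK medium in replicate 3, against 50.8, 52.2, 54.7 and 55.2 CPM in replicates 1 and 2. ATP5D had 57.4 and 73.3 CPM in growth medium in replicate 3, against 50.4, 52.96, 57.7 and 59.7 CPM in replicates 1 and 2, a difference of -0.75 ± 0.12. NDUFB8, a subunit of complex I, differed by -0.71 ± 0.11 and ATP5C1, another ATP synthase subunit, by -0.50 ± 0.08. ATP5C1 lay at 192 and 206 CPM in MK medium in replicate 3, against 268, 269, 271 and 273 CPM in replicates 1 and 2, without overlap.

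Most genes of DNA replication and of mitosis were called as falling with MK medium in both sets. These were 42 of 44 and 49 of 52 in replicate 3, against 43 and 51 in replicates 1 and 2. For all genes tested, the share called in either direction was 72.3% in replicate 3 and 76.9% in replicates 1 and 2. This share includes rising genes, so it is larger than the like share of falling genes alone. Of 44 G1/S and DNA replication genes, 27 had a lower response in replicate 3 and 1 a higher one. The 27 became 13 without its siNC MK library, and the 1 became 0 without replicate 1, replicate 2 or either siRHOB library of replicate 3. Their median response was -0.96 in replicate 3, against -0.69 in replicates 1 and 2. CCNE2, a cyclin of S phase entry, had 31.99 and 32.1 CPM in MK medium in replicate 3, against 37.00, 39.9, 43.3 and 45.5 CPM in replicates 1 and 2. CCNE2 had 44.8 and 46.3 CPM in growth medium in replicate 3, against 28.8, 31.3, 33.6 and 34.4 CPM in replicates 1 and 2, a difference of -0.88 ± 0.11. It fell in replicate 3 and rose in replicates 1 and 2. E2F2, a factor that drives such genes, differed by -0.58 ± 0.10, and CHAF1B, a histone chaperone subunit, by -0.55 ± 0.10. Of 52 G2/M and mitosis genes, 18 were lower and 1 higher, and the 18 ranged from 3 to 19 when single libraries or replicates were left out, with the 3 found without the siNC MK library of replicate 3. It was 7 without replicate 2, 8 without the siRHOB growth medium library of replicate 3, 9 without the siNC library of replicate 2 in either medium and 10 without replicate 1 or its siNC MK library. The 1 higher became 0 without replicate 1, the siNC growth medium or the siRHOB MK library of replicate 3, and 2 without any siRHOB growth medium library or the siNC MK library of replicate 1 or 2. KIF4A, a chromosome-bound kinesin, differed by -0.49 ± 0.08, BIRC5, survivin, by -0.53 ± 0.09 and CCNB2, a mitotic cyclin, by -0.49 ± 0.08. MKI67, the proliferation marker, had 286 and 333 CPM in MK medium in replicate 3, against 333, 342, 349 and 361 CPM in replicates 1 and 2, and a difference of 0.13 ± 0.11 that was not called.

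Of 31 cyclin and CDK regulators, 3 were higher and 7 lower, or 5 higher without the siRHOB growth medium library of replicate 1. Over all genes tested, 11.9% were higher and 14.4% lower. GADD45B, a stress-induced growth arrest gene, had 9.200 and 11.4 CPM in MK medium in replicate 3, against 2.78, 2.91, 2.97 and 5.45 CPM in replicates 1 and 2. GADD45B had 0.503 and 0.594 CPM in growth medium in replicate 3, against 1.75, 1.95, 2.24 and 2.29 CPM in replicates 1 and 2, a difference of 3.47 ± 0.40. Its relative GADD45A differed by 0.50 ± 0.08 and the cell cycle factor gene E2F3 by -0.46 ± 0.08. CDKN1A, the CDK inhibitor p21, rose in all 6 pairs and had a difference of -0.07 ± 0.30, and CCND1, cyclin D1, had 0.12 ± 0.10. Neither was called. MYC had a difference of -0.13 ± 0.10 and was not called, and MYB, a factor of immature blood cells, had -0.52 ± 0.12, a call lost without replicate 1, without the siNC MK library of replicate 3 or without its siRHOB growth medium library.

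Replication-dependent histone genes stood low in replicate 3 in both media, with 17 of 23 called lower in MK medium and 21 in growth medium. The MK response was higher in replicate 3 for 10 and lower for 0. The 10 became 2 without replicate 2, 4 without either siRHOB library of replicate 3 and 6 without its siNC MK library. HIST1H3B, a histone H3 gene, had 5.85 and 6.72 CPM in MK medium in replicate 3, against 14.9, 15.7, 16.6 and 17.2 CPM in replicates 1 and 2. HIST1H3B had 3.08 and 3.29 CPM in growth medium in replicate 3, against 23.1, 23.8, 25.02 and 25.6 CPM in replicates 1 and 2, a difference of 1.58 ± 0.16. HIST1H2BG differed by 0.65 ± 0.15, and HIST1H1C by 0.31 ± 0.08, a call lost without replicate 2 or without the siRHOB MK library of replicate 3. RNAs of these genes mostly lack poly(A) tails, and the part of the polyT selection in their levels was not tested. Of 30 ribosome biogenesis genes, 11 were lower and 0 higher, and the 11 ranged from 4 to 12 when libraries or replicates were left out, with 4 found without replicate 1 and 5 to 7 without replicate 2, either growth medium library of replicate 3 or the siNC MK library of replicate 1 or 3. BYSL, a factor of small subunit assembly, differed by -0.61 ± 0.09, POLR1A, the largest subunit of RNA polymerase I, by -0.47 ± 0.09 and UTP20, a factor of small subunit processing, by -0.41 ± 0.08. Of 63 cytosolic ribosomal protein genes, 6 were higher and 7 lower, both shares below those of all genes tested, and the sign of their median depended on the scaling. The 6 became 3 without replicate 1, either siNC library of replicate 3 or with a block of replicate number by medium, and 2 without replicate 2. The 7 became 13 without the siRHOB growth medium library of replicate 2, 4 without the siNC growth medium library of replicate 2, the siRHOB growth medium library of replicate 3 or the siNC MK library of replicate 1, and 1 to 3 without any other library of replicate 3. RPS4X differed by 0.28 ± 0.07, RPLP2 by -0.60 ± 0.13 and RPSA by -0.28 ± 0.07, the last a call lost without replicate 2 or without the siNC MK library of replicate 3.

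**Figure D5:**
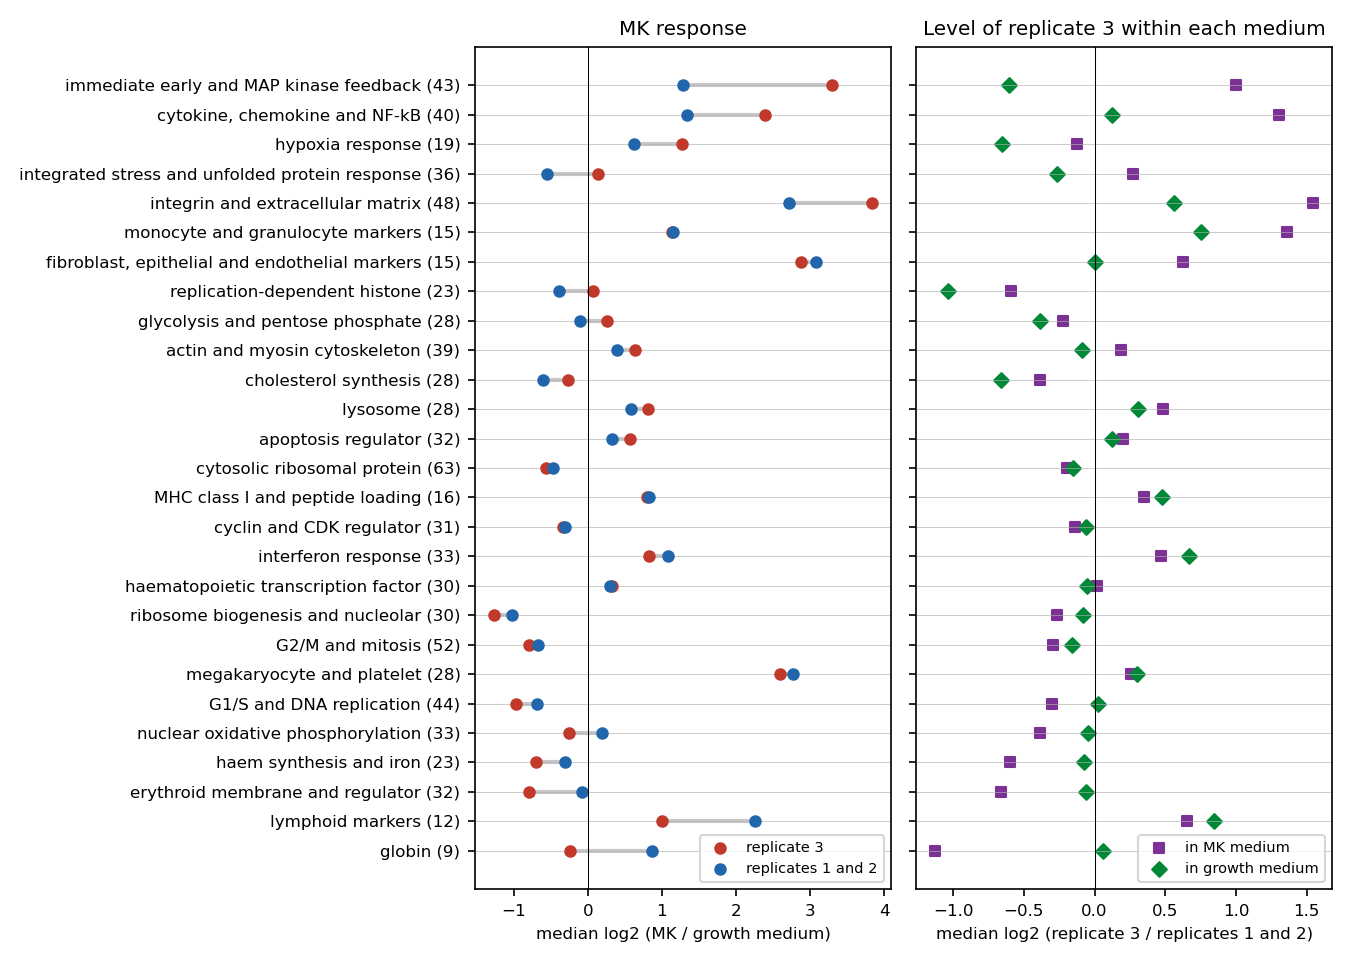
Median over the tested members of 27 gene lists (number in brackets), ordered by their median difference: the fitted MK response in replicate 3 and in replicates 1 and 2 (left), and the level of replicate 3 relative to replicates 1 and 2 in MK medium and in growth medium (right), all on the log2 scale. Immediate early genes stand at the top, with a median response of 3.29 in replicate 3, against 1.28 in replicates 1 and 2, and globins at the bottom, with -0.24, against 0.87.

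Markers of other cell types were also read. Monocyte and granulocyte markers summed to 307 to 325 CPM in MK medium in replicate 3, against 231 to 246 CPM in replicates 1 and 2, and to 143.0 to 143.3 CPM in growth medium in replicate 3, against 83.6 to 104.9 CPM in replicates 1 and 2, and FCN1 had no reads. Lymphoid markers summed to 26.8 to 35.8 CPM in MK medium in replicate 3, against 35.4 to 43.5 CPM in replicates 1 and 2, and to 12.02 to 12.7 CPM in growth medium in replicate 3, against 8.05 to 9.18 CPM in replicates 1 and 2, and MS4A1 had no reads. Fibroblast, epithelial and endothelial markers summed to 308 to 314 CPM in MK medium in replicate 3, against 258 to 290 CPM in replicates 1 and 2, and to 109.9 to 140.7 CPM in growth medium in replicate 3, against 119.7 to 130.4 CPM in replicates 1 and 2, and KRT5 and KRT14 had no reads. Their part in the differences above was not tested.

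Of 15 myeloid genes tested, 4 had a higher response in replicate 3 and 1 a lower one, and the 4 became 2 without replicate 2, the siNC growth medium library of replicate 2 or 3, or the siRHOB growth medium or siNC MK library of replicate 3. The 1 lower became 2 without the siNC growth medium or the siRHOB MK library of replicate 1. LYZ, lysozyme, had 44.8 and 50.7 CPM in MK medium in replicate 3, against 51.3, 52.2, 52.3 and 58.2 CPM in replicates 1 and 2. LYZ had 74.5 and 76.3 CPM in growth medium in replicate 3, against 28.4, 28.7, 28.8 and 30.1 CPM in replicates 1 and 2, so it fell with MK medium in replicate 3 and rose in replicates 1 and 2 (difference -1.54 ± 0.09, edgeR adjusted p = 3.03e-09). FCGR2A, an Fc receptor of platelets and myeloid cells, differed by 1.04 ± 0.10 and CD33, a sialic acid-binding receptor of myeloid cells, by 1.23 ± 0.18. Of 12 lymphoid genes, 1 was higher and 2 were lower, against 11.9% and 14.4% of all genes tested. The T cell receptor chains CD3D and CD3G differed by -0.79 ± 0.17 and -3.30 ± 0.80. CD3G had 1 to 6 reads in the growth medium libraries of replicates 1 and 2. Its difference ranged from -4.35 to -1.58 over the alternatives, and its call was lost without the siNC growth medium library of replicate 3. The perforin gene PRF1 differed by 0.56 ± 0.16, a call lost without replicate 1, replicate 2 or any of 3 libraries of replicate 3. GZMB, granzyme B, had 6280 and 6694 reads in the MK libraries of replicate 3, against 2176 to 4370 reads in those of replicates 1 and 2, and 0 reads in every growth medium library, so no difference of responses can be given. Of 15 fibroblast, epithelial and endothelial genes, 1 was higher, or 2 without the siNC growth medium library of replicate 3 or the siRHOB MK library of replicate 2, and 4 were lower, or 2 without replicate 2, its siNC library in either medium, the siRHOB library of replicate 3 in either medium or its siNC MK library. COL1A1, a chain of collagen I, had 238 and 249 CPM in MK medium in replicate 3, against 93.6, 95.9, 98.8 and 119 CPM in replicates 1 and 2. COL1A1 had 4.48 and 6.83 CPM in growth medium in replicate 3, against 0.462, 0.618, 0.622 and 0.816 CPM in replicates 1 and 2. Its difference of -1.88 ± 0.27 was lost without replicate 1. COL1A2, the other chain, had 21.2 and 26.1 CPM in MK medium in replicate 3, against 121, 122, 127 and 129 CPM in replicates 1 and 2. COL1A2 had 6.92 and 8.53 CPM in growth medium in replicate 3, against 13.3, 14.4, 14.5 and 16.6 CPM in replicates 1 and 2, a difference of -1.47 ± 0.14. KRT19, a keratin, differed by 0.81 ± 0.08.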

How the data were processed

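RNA of 12 K562 libraries was sequenced after polyT selection and fragmentation, per the labels' protocols. The deposited table holds the authors' raw read counts per gene, and its FPKM values were not used. GRCh37.p13 is the build in the submitters' processing notes, which list featureCounts 2.0.2 and HISAT2 2.2.1 as well as edgeR without their roles. How strand and multi-mapping reads were treated is not stated in the sources used. Libraries held 34412558 to 54048161 counts.

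Counts were fitted in R 4.3.3 with edgeR 4.0.16 (TMM scaling, filterByExpr, robust quasi-likelihood F test, two-sided, Benjamini-Hochberg over the 14429 genes tested). The fit had 4 means, MK or growth medium by replicate 3 or replicates 1 and 2, and the siRNA as an additive term. The 5 contrasts share libraries. Responses per pair of libraries are differences of log2 CPM with a prior count of 2. No pair of replicates was alike within sampling noise.

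Libraries with the same replicate number deviated together from their group means. Correlations were 0.136 to 0.587 (replicate 1), 0.169 to 0.475 (replicate 2) and 0.312 to 0.830 (replicate 3). Each group mean includes replicate 3, so the shift of replicate 3 also enters the deviations of replicates 1 and 2. Deviations of libraries with different numbers were not compared, so these values do not show that numbers 1 and 2 pair the libraries. Pairs were formed by number as labelled. The labels do not say what a number stands for.

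Members and gene lists were chosen with earlier results of these data known. Named genes are the 12 largest positive and 12 largest negative differences among called genes with at least 5 CPM in 1 of the 4 sets of libraries and pair responses of replicate 3 outside the range of the others, up to 3 called members of each list by smallest adjusted p, and a fixed set of lineage and small GTPase genes, some of which are not reported here. Alternatives were DESeq2 1.42.0, RLE scaling, no filter and a stricter filter (20 reads in 4 libraries), each siRNA arm alone, an siRNA by medium term, replicate blocks, a test against 1.5-fold, and leaving out each replicate or library.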

Additional observations from a re-analysis of the deposited data

Results flagged for a closer look

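Among the 4 pair responses of replicates 1 and 2, 1 pair stood apart from the other 3 by Dixon's criterion in 9 of 155 genes and lists examined, and chance flags about 1 in 20. Values are log2 ratios of MK to growth medium, or medians of these over a list. The siNC pair of replicate 2 stood apart for ALAS2 (1.07) and TIMP4 (6.91), and TIMP4 had 2 reads in all in growth medium in those replicates. The siRHOB pair of replicate 2 stood apart for CTSB (1.23), FCGR2A (1.11) and ITGA2 (4.01), where ITGA2 is the highest of the 4. The siNC pair of replicate 1 stood apart for MCL1 (0.51) and for the hypoxia response list (0.30), and the siRHOB pair of replicate 1 for the actin and myosin cytoskeleton list (0.15) and the replication-dependent histone list (-0.25).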

How the results depend on the processing

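The 3798 genes called became 4028 with DESeq2, 3779 with RLE scaling, 3737 with no filter, 3817 with the stricter filter, 3630 with an siRNA by medium term and 3149 in siNC libraries alone. In siRHOB libraries alone 530 were called (302 higher, 228 lower, of which 239 stronger, 155 weaker and 136 opposite), with 2084 in MK medium and 1434 in growth medium. Against a 1.5-fold minimum 474 were called (273 higher, 201 lower, of which 202 stronger, 143 weaker and 129 opposite), with 5599 for the response of replicate 3, 5482 for that of replicates 1 and 2, 1259 in MK medium and 645 in growth medium. Leaving out 1 replicate or library gave 2085 to 3970 genes, 1125 to 1890 higher and 960 to 2182 lower, 1029 to 2072 stronger, 521 to 977 weaker and 535 to 972 opposite. It gave 9288 to 10634 for the response of replicate 3, 9377 to 11228 for that of replicates 1 and 2, 3516 to 6833 in MK medium and 3074 to 5033 in growth medium. The lows were found without the siNC MK library of replicate 3, apart from growth medium (without its siNC growth medium library) and the response of replicates 1 and 2 (without replicate 2). Weaker genes were 621 without replicate 1, 575 without replicate 2 and 606 without the siNC growth medium library of replicate 3. The causes were not tested.

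With the replicate number as a block 3613 genes were called, and 3392 with a block by medium. PLEK was called under both blocks (differences of -1.22 and, by medium, -1.25), and under the block by medium APP, CHI3L1, SBSN and EMP1 were not called. No other gene named changed its call under the block. Of 116 named genes called, 115 kept their sign under every setting run, and NLRC5 had 0.94 in siRHOB libraries alone. Only 65 of the 116 were called under every setting other than single siRNA arms. Calls for genes with few growth medium reads are limited by that depth.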

Other observations

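Whether the difference itself differed between the siRHOB and siNC arms was read from a fit with medium, replicate 3 and siRNA crossed. With edgeR, 0 of 14429 genes were called, 697 had an unadjusted p under 0.05 and the smallest adjusted p was 0.213.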
